A study of Homo sapiens with 4 samples.

Results

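The nuclear genes of respiratory complexes II to V were taken as every gene whose symbol in the count files is SDHA to SDHD, starts with UQCR, starts with COX4 to COX8 or ATP5 followed by a letter, or is CYC1. This rule, which uses symbols and no measured value, found 52 of the 23228 genes: 4 of complex II, 10 of complex III, 18 of complex IV and 20 of complex V. Of the 52, 45 encode subunits. The other 7 share only the symbol or the sequence: UQCRHL and ATP5EP2 are copies of UQCRH and ATP5E, COX4NB is a neighbour of COX4I1 that belongs to an ER membrane complex, COX7A2L is a supercomplex factor, ATP5S and ATP5SL are related to a coupling factor, and ATP5J2-PTCD1 is a readthrough gene. RNA was sequenced from SKOV3-ALDH+ ovarian cancer stem cells (OCSCs), cells of the SKOV3 ovarian cancer line that were sorted for aldehyde dehydrogenase activity and grown as spheroids. There were 2 samples treated with vehicle and 2 treated with 5 µM LY500307, an agonist of estrogen receptor β, each for 24 h. All 4 samples came from this single line, and nothing states that replicates were separate cultures, so p-values measure only the spread between these samples, which may be technical. The question was which respiratory chain genes differ in RNA level after the agonist.

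Complexes II to IV pass electrons from succinate, through ubiquinone and cytochrome c, to oxygen, and complexes III and IV pump protons as they do so. Complex V, the ATP synthase, lets protons flow back through a rotating ring of c subunits and uses the rotation of its F1 head to make ATP. Nearly all subunits are encoded in the nucleus, and several in complex IV come as ubiquitous and tissue-specific isoforms. The mitochondrially encoded subunits of complexes III to V were looked for by symbol and not found among the genes counted, so they were not analysed here.

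The 4 samples held 28841701 to 34943882 gene counts. LY500307 replicate 2 stood apart from the others. Counts of the 2 vehicle samples differed by a chi-square of 5.16 per degree of freedom and those of the 2 LY500307 samples by 42.5, and 25.5% of the uniquely aligned reads of LY500307 replicate 2 fell outside genes, against 28.4% to 30.8% in the other samples. EPCAM, a marker of epithelial cells, had 6213 to 8327 counts, and the ovarian lineage factor PAX8 had 0 in every sample. Of the other markers listed for an epithelial ovarian cancer line, ERBB2 had 1452 to 2060 counts, KRT18 668 to 1030 and ALDH1A1 134 to 185. The rest were low, with 9 to 33 for KRT8, 8 to 16 for ALDH1A3, 1 to 6 for MUC16, and 0 to 2 for KRT19 and WT1. Of the leukocyte markers given here, PTPRC had 0 to 4 counts, CD3E 0 to 2 and CD14 6 to 22, while CD68 had 372 to 620. Of the 4 endothelial markers, CDH5 had 0 to 1, PECAM1 0 to 4 and VWF 0 to 11, while KDR had 3775 to 5246. The fibroblast-associated collagen COL1A1 had 5404 to 7703. Of 6 fibroblast-associated markers 2 were higher with LY500307 in edgeR at an unadjusted p below 0.05, against 6.09% of all genes tested. Both LY500307 values lay above both vehicle values for 3 markers and below both for 2, DCN and LUM (24.2% and 24.4% of all genes tested). The summed level of the 6 markers was 905.5 and 915 CPM (counts scaled to library size) in vehicle and 994 and 1169 CPM with LY500307. Their part in the results below was not tested.

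In the LY500307 samples, 40 of the 45 tested genes of complexes II to V had a positive log2 fold change, against 50.0% of the 14473 genes tested. Their median log2 fold change was 0.27, or 0.29 over the 39 subunit genes alone, against 0.00 over all genes. At an unadjusted p below 0.05 in edgeR's quasi-likelihood test, 14 rose (background 6.09% of genes tested) and 0 fell (background 5.5%). These were UQCR11 and UQCRQ in complex III, COX5B, COX8A, COX5A, COX6B1, COX6A1 and COX4NB under complex IV, and ATP5D, ATP5O, ATP5G2, ATP5G1, ATP5H and ATP5EP2 under complex V. In the text below, "rose" and "fell" refer to this unadjusted test. With the added requirement of an absolute log2 fold change above 0.5, which the study also used, 6 were higher (background 2.76%) and 0 lower (background 1.86%). No member passed after Benjamini-Hochberg adjustment over all 14473 genes in edgeR, where 0.422 was the smallest adjusted p of any gene and an unadjusted p below 0.05 was reached by 1678. DESeq2 gave an unadjusted p below 0.05 to 17 members in the positive direction (background 5.42%), the same 14 among them, and an adjusted p below 0.05 to 0, the lowest being 0.062 for ATP5D. In bulk RNA, a change in the RNA per cell and a change in the mix of cells cannot be told apart. With 2 against 2 samples, an exact two-sided permutation test of a single value cannot go below 1 in 3.

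The size of these differences rested mainly on LY500307 replicate 2. Of all gene counts, complexes II to V took 0.520% in vehicle replicate 1, with a 95% Wilson interval of 0.518% to 0.523%, and for vehicle replicate 2 the share was 0.523% (0.520% to 0.525%). With LY500307 the share was 0.560% for replicate 1 (0.558% to 0.562%) and 0.684% for replicate 2 (0.681% to 0.687%), and the intervals cover counting error only. Both LY500307 samples thus lay above both vehicle samples, replicate 2 the farther. The median log2 ratio of the 45 genes to the vehicle mean was 0.09 in LY500307 replicate 1, with 38 positive, and 0.35 in replicate 2, with 37 positive. Of all 14473 genes tested, 7199 were positive in LY500307 replicate 1 and 7161 in replicate 2. LY500307 replicate 2 was the highest of the 4 samples for 31 of the 45 genes (68.9%, against 35.5% of all genes tested) and the lowest for 8 (17.8% against 35.1%). The 2 LY500307 samples differed from each other by a median absolute log2 ratio of 0.39 over these genes, and the 2 vehicle samples by 0.084. Over all genes tested these medians were 0.22 and 0.11. Without LY500307 replicate 2, the median log2 fold change was 0.09, 11 members were higher (background 7.12%), 7 of the 14 among them, and the remaining LY500307 sample was assumed to vary like the vehicle pair. The count was 7 without vehicle replicate 1, 6 without vehicle replicate 2 and 31 without LY500307 replicate 1, against backgrounds of 3.14%, 2.85% and 19.8%. Counting only whether the groups overlapped, both LY500307 values lay above both vehicle values for 24 of 45 genes (background 24.2%) and below both for 2, UQCRHL and COX7B (background 24.4%).

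**Figure D1:**
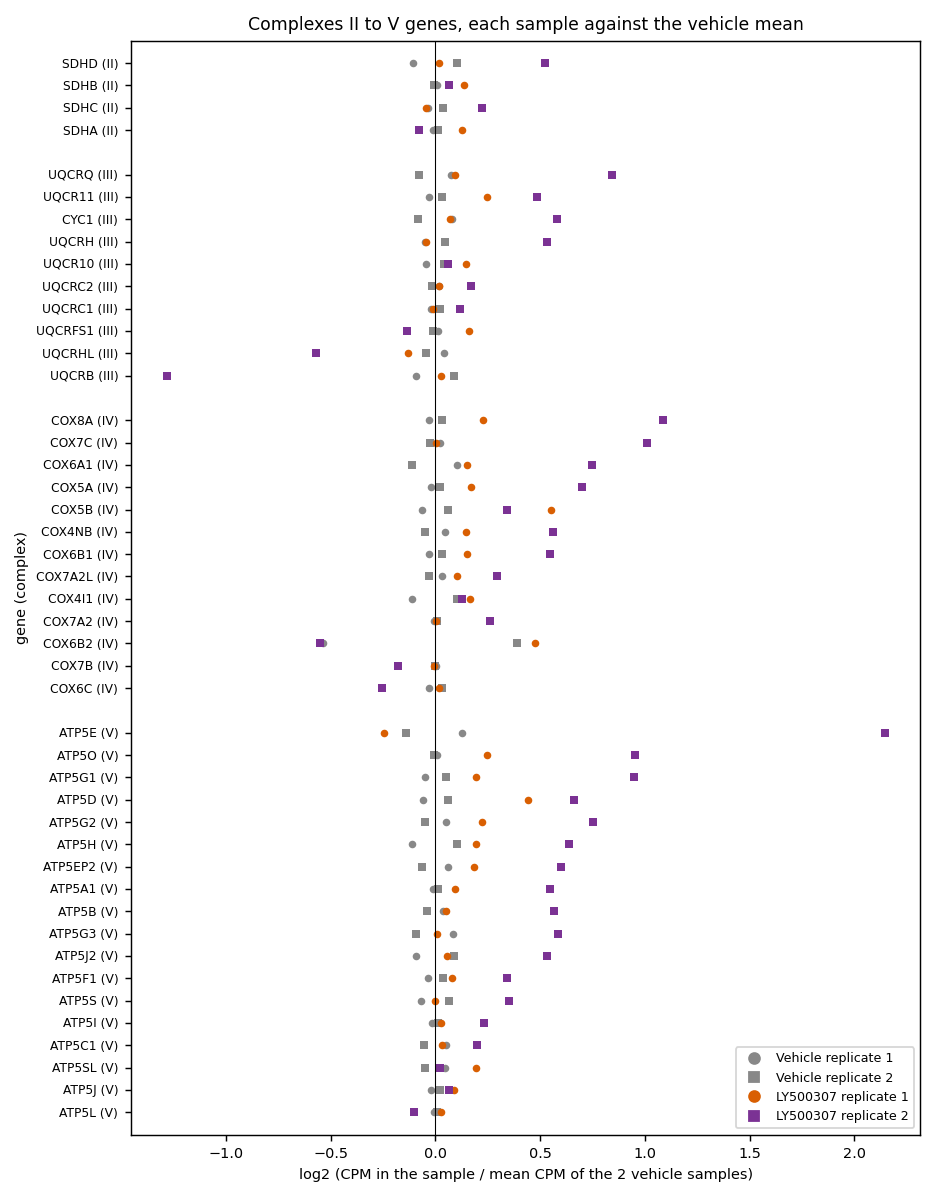
Each row is a gene of complexes II to V that passed the filter, grouped by complex, and each point is a sample's log2 ratio of CPM (counts scaled to the same TMM-adjusted library total) to the mean of the 2 vehicle samples. Most squares of LY500307 replicate 2 lie to the right, with UQCRB the farthest to the left at -1.28, while the circles of LY500307 replicate 1 lie closer to the vehicle samples.

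**Figure D2:**
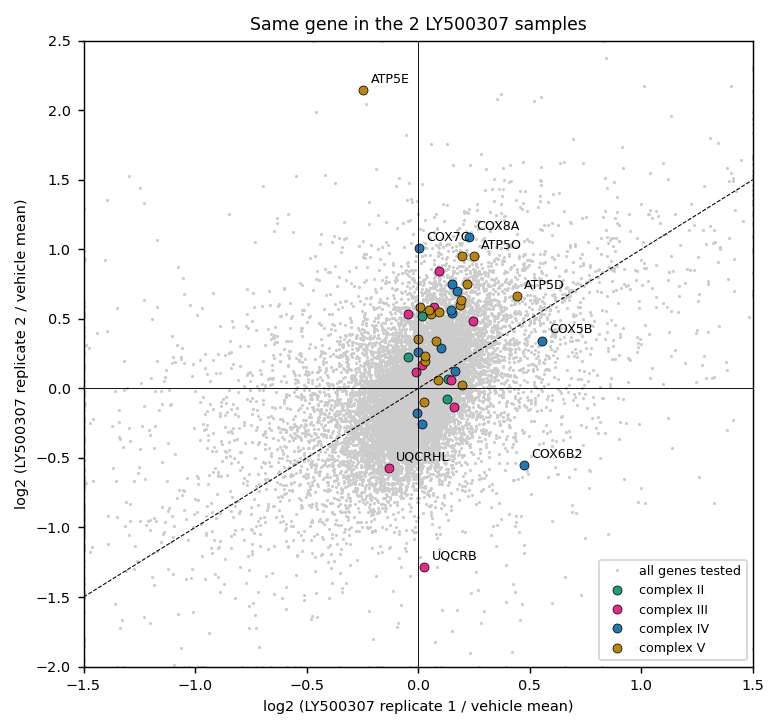
Log2 ratio to the vehicle mean in LY500307 replicate 1 (horizontal) against LY500307 replicate 2 (vertical), with all genes tested in grey, drawn at the edge where they lie beyond the axes, and genes of complexes II to V in color. Points of the complexes gather above the dashed line of equal values, and COX5B is among those below it. Of the 45, 32 are positive in both samples (71.1%, against 33.8% of all genes tested).

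The 4 subunit genes of complex II, succinate dehydrogenase, held 0 genes that passed the test, with a median log2 fold change of 0.10. SDHA, the flavoprotein that oxidises succinate, had 3920 and 3774 counts in the vehicle samples and 4999 and 4032 in the LY500307 samples, or 132 ± 1.41 and 134 ± 13.6 CPM (counts scaled to library size, mean ± SD, n = 2). The LY500307 values lay on either side of the vehicle values. Its log2 fold change was 0.03 (SE 0.11, edgeR adjusted p = 0.922), the lowest of the complex. SDHC, a membrane anchor with the highest level of the complex per length (85.3 CPM per kb of transcript in vehicle), had 1147 and 1144 counts in vehicle and 1322 and 1482 with LY500307. LY500307 replicate 1 did not exceed the vehicle samples once scaled, and the log2 fold change was 0.10 (SE 0.13, edgeR adjusted p = 0.762). SDHB, the iron-sulfur subunit, was slightly above vehicle in both LY500307 samples (73.3 and 72.6 against 80.2 and 76.4 CPM). SDHD, the other anchor, stood out only in LY500307 replicate 2 (52.7 CPM, against 34.0 to 39.3 in the other samples).

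In complex III, 2 of 10 genes rose (background 6.09%) and the median log2 fold change was 0.10, or 0.05 without LY500307 replicate 2. Both that rose encode small accessory subunits. UQCR11 (hg19 chr19:1597168-1605472, minus strand) had 2168 and 2146 counts in vehicle and 3038 and 3341 with LY500307, or 73.9 ± 2.24 and 95.5 ± 11.2 CPM (n = 2). Both LY500307 samples were above both vehicle samples, with a log2 fold change of 0.37 (SE 0.11, edgeR unadjusted p = 0.0127, adjusted p = 0.422). UQCRQ (chr5:132202322-132204539, plus strand) had 1593 and 1358 counts in vehicle and 1869 and 2926 with LY500307, or 50.5 ± 3.80 and 72.2 ± 25.9 CPM. Its LY500307 replicate 1 value, 53.9 CPM, lay next to the higher vehicle value of 53.1, so that replicate 2 carried the log2 fold change of 0.52 (SE 0.22, edgeR unadjusted p = 0.0459, adjusted p = 0.428). Without that sample it was 0.10 and did not pass.

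The redox-active and core subunits of complex III did not pass in edgeR. CYC1, cytochrome c1, had 120 and 108 CPM in vehicle and 120 and 171 with LY500307 (log2 fold change 0.35, SE 0.16, edgeR unadjusted p = 0.0667). DESeq2 placed it just past the threshold (unadjusted p = 0.0459). The core proteins UQCRC1 and UQCRC2 had log2 fold changes of 0.06 and 0.10, the Rieske iron-sulfur protein UQCRFS1 0.02, and the accessory UQCR10 0.10. UQCRB, a small subunit near the ubiquinone site, had the most RNA per length in this complex (428 CPM per kb in vehicle). It had 7746 and 8341 counts in vehicle, 9759 in LY500307 replicate 1 and 3667 in LY500307 replicate 2, or 258, 294, 281 and 114 CPM. Only LY500307 replicate 2 was low, and the log2 fold change of -0.48 (SE 0.34, edgeR adjusted p = 0.547) became 0.03 without it. The hinge protein gene UQCRH and its intronless copy UQCRHL lay on opposite sides of vehicle in LY500307 replicate 2, with log2 ratios to the vehicle mean of 0.53 and -0.57. Summed, the pair had 4136 and 3899 counts in vehicle and 4475 and 4466 with LY500307, a log2 ratio of the CPM means of -0.04. The assignment of reads between such near-identical copies is uncertain, so neither value is firm on its own.

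Complex IV, cytochrome c oxidase, had 6 of 13 tested genes that rose (background 6.09%), COX4NB among them. Its median log2 fold change was 0.36, or 0.15 without LY500307 replicate 2. COX5B (chr2:98262525-98264846, plus strand), a zinc-binding subunit, had 3364 and 3482 counts in vehicle and 5980 and 4814 with LY500307, or 117 ± 7.26 and 161 ± 16.5 CPM (n = 2). The groups did not overlap and, unlike most members, replicate 1 was the higher of the LY500307 samples. The log2 fold change was 0.45 (SE 0.11, edgeR unadjusted p = 0.00385, adjusted p = 0.422) and 0.56 without replicate 2. COX8A (chr11:63742092-63744015, plus strand), the ubiquitous form of the smallest subunit, had 1950 and 1932 counts in vehicle and 2703 and 4572 with LY500307, or 66.5 ± 2.06 and 110 ± 45.0 CPM. Both treated samples were higher, replicate 2 by far the more, and the log2 fold change of 0.72 (SE 0.24, edgeR unadjusted p = 0.0166, adjusted p = 0.422) was 0.23 without it.

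COX5A (chr15:75212132-75230424, minus strand), a matrix-side subunit, had 2349 and 2293 counts in vehicle and 3109 and 4175 with LY500307. COX6B1 (chr19:36139225-36149684, plus strand), on the side that meets cytochrome c, had 2582 and 2551 in vehicle and 3392 and 4147 with LY500307. COX6A1 (chr12:120875893-120878540, plus strand) had 1061 and 868 in vehicle and 1271 and 1790 with LY500307. In all 3 the treated samples were above the vehicle samples in CPM, by little in replicate 1 of COX6A1 (36.6 against 35.4 CPM in the higher vehicle sample). The log2 fold changes were 0.46 for COX5A (SE 0.16, edgeR unadjusted p = 0.0234), 0.36 for COX6B1 (SE 0.14, unadjusted p = 0.0306) and 0.48 for COX6A1 (SE 0.20, unadjusted p = 0.0399), with adjusted p of 0.422, 0.422 and 0.427. Without LY500307 replicate 2 they were 0.17, 0.15 and 0.15, and COX6B1 and COX6A1 no longer passed (edgeR unadjusted p = 0.0512 and 0.187). COX6C had the highest RNA level per length of all 52 genes, 457 CPM per kb in vehicle. It had 8476 and 8376 counts in vehicle and 10135 and 7818 with LY500307, and only LY500307 replicate 2 was lower than vehicle. With a log2 fold change of -0.11 (SE 0.12, edgeR adjusted p = 0.688) it was the lowest of complex IV. Subunit COX7C was at 56.5 and 54.7 CPM in vehicle, 55.7 in LY500307 replicate 1 and 112 in replicate 2, so its log2 fold change of 0.59 (SE 0.27, edgeR unadjusted p = 0.062) came from 1 sample. COX4I1 and COX7A2 had log2 fold changes of 0.14 each, COX7A2L 0.20 and COX7B -0.09, and none of these passed.

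The complex IV isoforms were those found in most tissues. COX4I2, a form of subunit 4 known from lung, had 1 count over the 4 samples, against 31844 for COX4I1. The muscle forms COX6A2 and COX7A1 had 0 counts in every sample, which allows up to 3 counts in each, and the testis forms COX7B2 and COX8C had 1 and 3 in all. Another testis form, COX6B2, had 15 and 27 counts in vehicle and 35 and 16 with LY500307. In CPM per kb of transcript, this was 0.120% to 0.329% of COX6B1 and COX6B2 together. A shift between these isoforms was not detectable at this depth. The 5 genes other than COX6B2 did not pass the filter on low counts and were not tested, and in complex V this also held for ATP5L2 (1 count in all) and ATP5J2-PTCD1 (0 counts).

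In complex V, 6 of 18 tested genes rose and 0 fell (background 6.09% and 5.5%), and the median log2 fold change was 0.33. With LY500307 replicate 2 left out this median was 0.09, and with replicate 1 left out 0.56. In the F1 head, ATP5D (chr19:1241745-1244824, plus strand), the delta subunit of the central stalk, had the smallest p of all members. It had 1717 and 1770 counts in vehicle and 2817 and 3056 with LY500307, or 59.8 ± 3.53 and 87.9 ± 9.46 CPM (n = 2). Both treated samples were well above vehicle, with a log2 fold change of 0.56 (SE 0.12, edgeR unadjusted p = 0.00152, adjusted p = 0.422) and of 0.44 without LY500307 replicate 2. ATP5B, the catalytic beta subunit and the most abundant RNA of the complex (396 CPM per kb in vehicle), had 21443 and 19298 counts in vehicle and 25042 and 33337 with LY500307. In CPM, replicate 1 barely exceeded the higher vehicle sample (722 against 716), and the log2 fold change was 0.33 (SE 0.17, edgeR unadjusted p = 0.083). The alpha subunit ATP5A1 had a log2 fold change of 0.34 (unadjusted p = 0.0593 in edgeR) and the gamma shaft ATP5C1 0.12. ATP5A1 and ATP5B passed the unadjusted threshold in DESeq2 but not its adjusted one. The epsilon gene ATP5E had 19, 15 and 17 counts in the first 3 samples and 83 in LY500307 replicate 2, and its copy ATP5EP2 had 733, 638, 926 and 1148. Their sum was 752 and 653 in vehicle and 943 and 1231 with LY500307, a log2 ratio of CPM means of 0.44, and how reads were split between them is uncertain.

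The c ring is encoded by ATP5G1, ATP5G2 and ATP5G3, whose mature proteins are identical. ATP5G1 (chr17:46970127-46973233, plus strand) had 645 and 656 counts in vehicle and 886 and 1392 with LY500307, and ATP5G2 (chr12:54026510-54071192, minus strand) had 3395 and 3005 in vehicle and 4428 and 5967 with LY500307. For both genes the LY500307 samples lay above the vehicle samples, with replicate 2 the higher. The log2 fold changes were 0.62 for ATP5G1 (SE 0.23, edgeR unadjusted p = 0.0265) and 0.51 for ATP5G2 (SE 0.17, unadjusted p = 0.0152), each with an adjusted p of 0.422. They were 0.20 and 0.22 without LY500307 replicate 2, and ATP5G1 then did not pass. ATP5G3, the most expressed of the 3, had a log2 fold change of 0.33 (SE 0.18) and overlapping groups. As shares of the 3 genes' summed CPM per kb of transcript, ATP5G1 had 9.38% and 11% in vehicle and 10.9% and 12.3% with LY500307. ATP5G2 had 27.9% and 28.4% against 30.8% and 29.7%, and ATP5G3 62.7% and 60.6% against 58.3% and 58%. The groups did not overlap for ATP5G2 and ATP5G3 shares and overlapped for ATP5G1.

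In the peripheral stalk, which holds the F1 head still, 2 of 4 genes rose (background 6.09%). ATP5O (chr21:35275757-35288118, minus strand), the OSCP subunit at the top of the stalk, had 2744 and 2572 counts in vehicle and 3752 and 5695 with LY500307, or 91.6 and 90.5 CPM in vehicle and 108 and 176 CPM with LY500307. The vehicle samples were nearly equal and both treated samples higher, with a log2 fold change of 0.64 (SE 0.20, edgeR unadjusted p = 0.0129, adjusted p = 0.422), or 0.25 without LY500307 replicate 2. ATP5H (chr17:73034958-73043080, minus strand), subunit d, had 1364 and 1498 in vehicle and 1947 and 2469 with LY500307, with a log2 fold change of 0.43 (SE 0.16, edgeR unadjusted p = 0.0285, adjusted p = 0.422). Without LY500307 replicate 2 it was 0.19 and did not pass (edgeR unadjusted p = 0.0515). Subunit b (ATP5F1) and coupling factor 6 (ATP5J) had log2 fold changes of 0.22 and 0.08. Of the small membrane subunits e, f and g, 0 of 3 passed. ATP5I and ATP5J2 had log2 fold changes of 0.13 and 0.31. ATP5L, subunit g, had 4946 and 4732 counts in vehicle and 5860 and 4999 with LY500307. Once scaled, the groups overlapped, with 165 and 166.5 CPM in vehicle and 168.8 and 154.7 CPM with LY500307. The log2 fold change of ATP5L, -0.04 (SE 0.099, edgeR adjusted p = 0.891), was the lowest of complex V. The related ATP5S and ATP5SL, which are not subunits, had 0.19 and 0.11.

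**Figure D3:**
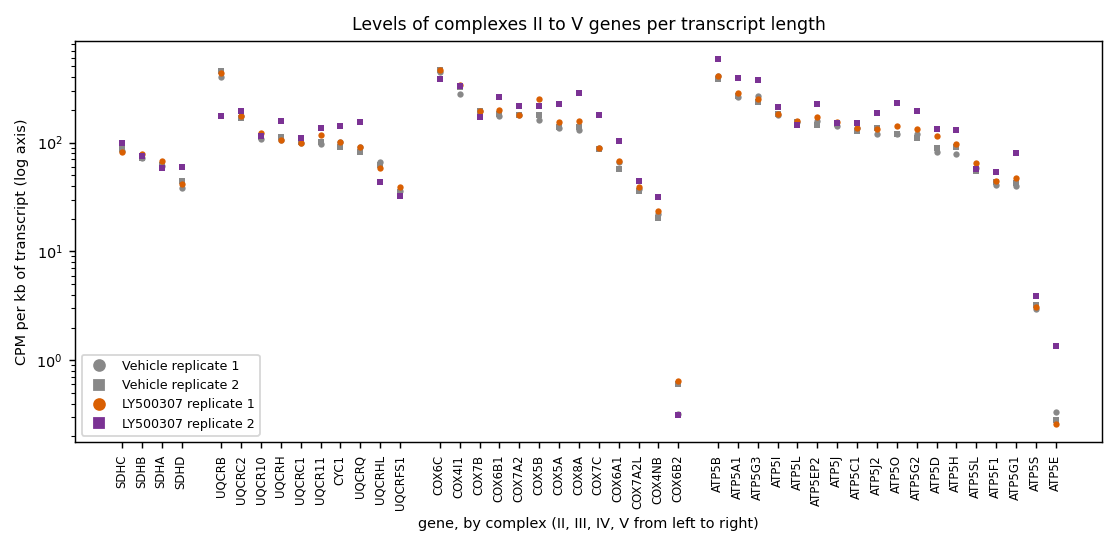
RNA level of each tested gene as CPM per kb of transcript on a log axis, ordered within each complex by the vehicle mean, with 1 point per sample. Apart from COX6B2 (0.463) and ATP5E (0.309), the subunits lie between 35.3 (UQCRFS1) and 457 (COX6C) CPM per kb in vehicle.

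To show what the members share in sequence, the promoters of members, whether they rose or not, were searched for motifs of factors known to act on respiratory genes. Windows from 250 bases before to 50 bases after the start (RefSeq, GRCh38.p14) were at hand for 37 of the 52 members, and both strands were searched for exact letters. The ETS-type motif CCGGAAG, bound by GABP among others, was found in 16 of 37 members (43.2%), against 21.1% of 10862 tested genes and 12.2% of all 27305 genes with a window. The NRF1-type motif (GCGCA, any base, GCGC) was found in 10 members (27.0%, against 12.8% and 6.98%) and the YY1-type motif (AA, any base, ATGGC, any base, G) in 10 (27.0%, against 7.85% and 4.37%). An estrogen response element (GGTCA and TGACC with any 3 bases between) was found in 0 members (0.0368% of tested genes), and the element of estrogen-related receptors, TCAAGGTCA, in 1, SDHD (2.70% of members, against 0.239% and 0.432%). These shares are descriptions, and a match is not a shown binding site. Among the 12 genes that rose and had a window, 8 held the ETS-type motif, 2 the NRF1-type and 3 the YY1-type.

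The 150 bases before the start follow for 4 of the genes that rose, 1 or 2 from each of complexes III to V, 5′ to 3′ on the gene's own strand, with the ETS-type and NRF1-type motifs in capitals. COX5B and ATP5O show 1 motif each, the ETS-type and the NRF1-type, and UQCR11 shows both kinds.
COX5B, GRCh38.p14 chr2:97645912-97646061, plus strand: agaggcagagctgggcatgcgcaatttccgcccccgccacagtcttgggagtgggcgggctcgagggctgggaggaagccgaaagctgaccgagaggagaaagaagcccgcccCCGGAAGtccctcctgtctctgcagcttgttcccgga
COX8A, GRCh38.p14 chr11:63974470-63974619, plus strand: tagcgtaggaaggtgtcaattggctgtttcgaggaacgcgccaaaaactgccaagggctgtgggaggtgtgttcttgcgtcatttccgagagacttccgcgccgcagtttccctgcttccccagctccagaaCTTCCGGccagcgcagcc
UQCR11, GRCh38.p14 chr19:1605463-1605612, minus strand: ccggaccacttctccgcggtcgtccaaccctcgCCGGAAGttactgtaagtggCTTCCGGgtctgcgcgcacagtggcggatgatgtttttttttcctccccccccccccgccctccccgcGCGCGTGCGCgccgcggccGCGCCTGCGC
ATP5O, GRCh38.p14 chr21:33915805-33915954, minus strand: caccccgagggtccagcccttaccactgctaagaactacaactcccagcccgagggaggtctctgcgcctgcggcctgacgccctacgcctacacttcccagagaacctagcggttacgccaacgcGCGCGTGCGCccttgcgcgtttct

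Genes for factors known to act on such promoters were also counted. Of 13 regulators of respiratory gene transcription, 12 were tested, 0 rose and 1 fell (background 6.09% and 5.5%). Their median log2 fold change was -0.07. The gene that fell was the coactivator PPARGC1B, with 1231 and 1079 counts in vehicle and 1114 and 972 with LY500307 and a log2 fold change of -0.35 (SE 0.12, edgeR unadjusted p = 0.021). Both of its LY500307 values were below vehicle once scaled. The ETS factor GABPA and NRF1 had log2 fold changes of -0.19 and -0.17, and the mitochondrial transcription factor TFAM -0.06, none of which passed. Of the 12, 4 had positive log2 fold changes and did not pass either. These were ESRRA and TFB2M (0.24 each), POLRMT (0.17) and TFB1M (0.08). PPARGC1A had 3, 0, 0 and 3 counts and was not tested.

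Among genes that complete the complexes but lie outside the symbol rule, 2 of 3 rose (background 6.09%). NDUFA4, now placed in complex IV, had 1621 and 1693 counts in vehicle and 2312 and 4492 with LY500307, with a log2 fold change of 0.85 (SE 0.29, edgeR unadjusted p = 0.0179). USMG5, a small subunit of complex V, had 1495 and 1373 in vehicle and 2080 and 2741 with LY500307, with a log2 fold change of 0.56 (SE 0.16, edgeR unadjusted p = 0.00913). In both genes replicate 2 was the highest sample. The ATP synthase inhibitor ATPIF1 had 4976, 5171, 6550 and 3904 counts, with the LY500307 samples on either side of vehicle. Cytochrome c (CYCS) and the electron transfer flavoprotein genes ETFA, ETFB and ETFDH had log2 fold changes from -0.11 to 0.05, and 0 of these 4 passed.

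Of 21 assembly factors of complex IV, 6 rose and 0 fell (background 6.09% and 5.5% of all genes tested), with a median log2 fold change of 0.19. The 3 with the smallest p were C7orf44 (COA1, 0.44), SURF1 (0.80), a factor for early assembly, and C12orf62 (COX14, 0.56). SURF1 had 323 and 260 counts in vehicle and 480 and 672 with LY500307, both treated samples above both vehicle samples. Of 4 complex II assembly factors SDHAF2, which attaches the flavin to SDHA, rose (0.31). Of 6 for complex III, UQCC (UQCC1) fell, by 0.31 on the log2 scale, and of 4 for complex V TMEM70 rose (0.55). In coenzyme Q synthesis, 2 of 12 rose (background 6.09%), COQ10A (0.58) and ADCK3 (COQ8A, 0.46). Counts for all these lists together are small, and 0 of their genes passed the adjusted threshold in edgeR.

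The most similar gene groups showed positive medians too. Complex I genes, taken by symbol with assembly factors and NDUFA4 among them, had 37 of 43 positive, 8 higher and 1 lower, and a median log2 fold change of 0.17, against 0.27 for complexes II to V. The mitochondrial ribosomal protein genes had 8 higher and 1 lower of 77 (median 0.10), and the cytosolic ribosomal protein genes 27 higher and 0 lower of 83 (median 0.24). Over all genes tested, 50% were positive, 6.09% higher and 5.5% lower. All of these share the same 4 samples. In LY500307 replicate 1 alone, the median log2 ratio to the vehicle mean was 0.12 for complex I, 0.09 for complexes II to V and 0.10 for cytosolic ribosomal proteins, and in replicate 2 it was 0.20, 0.35 and 0.40.

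**Figure D4:**
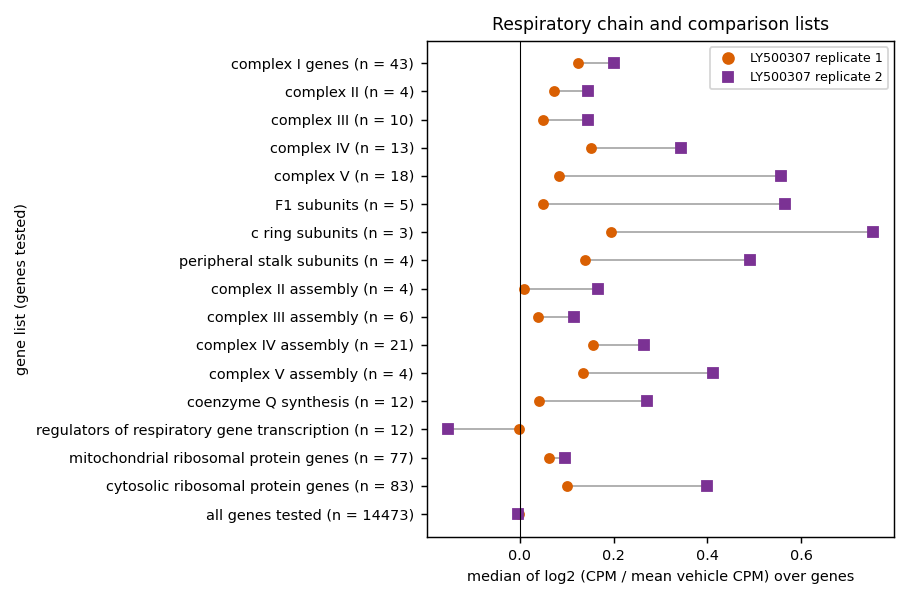
Median log2 ratio to the vehicle mean over the tested genes of each list, for LY500307 replicate 1 (circles) and replicate 2 (squares). The medians of complexes I to V are positive in both samples, the c ring and F1 lists have wider gaps between the samples than the whole of each complex, and all genes tested lie at 0.

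The members of complexes II to V have short transcripts. Their median length was 756 nt, against 2660 nt over all genes tested, and their GC content 47.9% against 49.3%. Over all genes, the log2 ratio of LY500307 replicate 2 to the vehicle mean had a Spearman rho of -0.19 with length and 0.33 with GC content. Over the 45 members these were -0.26 and 0.18. For LY500307 replicate 1 the values were -0.14 and 0.25 over all genes, and -0.087 and 0.48 over the members. The points share libraries, and no p is given. After a correction for length in each sample, 7 members were higher at an unadjusted p below 0.05 (background 5.64%) and 1 lower (background 4.82%), against 14 and 0 without it, and 35 of 45 stayed positive. The 7 were ATP5D, ATP5EP2, ATP5O, COX8A, ATP5G2, COX5B and UQCR11. The members' median became 0.17, and those of complexes II, III, IV and V became 0.01, 0.04, 0.19 and 0.23. A correction for GC content left 14 higher (background 5.41%), 10 of the original 14 among them. The part that length plays in the differences was not tested beyond this correction.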

How the data were processed

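RNA-seq of SKOV3-ALDH+ OCSCs (2 vehicle, 2 LY500307) was analysed. Per the labels, the authors aligned 50 bp single-end reads to hg19 with TopHat2 2.0.8b and counted them per gene symbol with HTSeq; samples were run in duplicate and their reads combined. The deposited values are raw counts. The strand setting of the counting is not given in the sources used here. Tally lines (reads outside genes, ambiguous or not unique) were left out of tests.

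Counts were tested in edgeR 4.0.16 (R 4.3.3; filterByExpr, TMM, quasi-likelihood test, Benjamini-Hochberg adjustment over 14473 genes), which was tested on simulated data. In the simulated data each gene varied alike in both groups, unlike in the vehicle and LY500307 pairs here. The simulation therefore cannot show how the test behaves when 1 group varies more. The SE is the size of the log2 fold change over the root of its F statistic. Alternatives were DESeq2 1.42.0, other scalings and filters, a replicate block, length and GC corrections (loess, span 0.3) and leaving out each sample. Transcript length and gene coordinates came from a GENCODE annotation of GRCh37 (91.8% of symbols matched), length being the median over a gene's transcripts.

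Members and lists were chosen with earlier results of these data known. Full values are given, in each complex, for up to 5 members of smallest p below 0.05, the lowest log2 fold change and the highest CPM per kb. From the lists of other subunits, assembly factors, coenzyme Q synthesis and regulators, up to 3 genes of smallest p below 0.05 are named. Each has its log2 fold change, and only some have counts, SE or p.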

Additional observations from a re-analysis of the deposited data

How the results depend on the processing

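Of the counts of members, those that moved did so mainly with single samples and with length. Leaving out each sample in turn gave 6 to 31 members higher at an unadjusted p below 0.05 (6 without vehicle replicate 2, 7 without vehicle replicate 1, 11 without LY500307 replicate 2 and 31 without LY500307 replicate 1), 0 to 4 lower, 1 to 21 higher and 0 to 2 lower at the study's criteria, and 0 to 32 at an adjusted p below 0.05. All genes called ranged from 352 to 1987 (669 with all samples) and genes at an adjusted p below 0.05 from 0 to 5002. The lone sample of a group was then assumed to vary like the other group. The members' median ranged from 0.09 to 0.35, and those of complexes II to V from 0.08 to 0.15, 0.05 to 0.15, 0.15 to 0.38 and 0.09 to 0.56, each lowest without LY500307 replicate 2.

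With the length correction, 7 members were higher and 1 lower (background 5.64% and 4.82%), 1 was higher at the study's criteria, and the medians were 0.17 for all members and 0.0058, 0.04, 0.19 and 0.23 for complexes II to V. The replicate block with length correction gave 6 higher and 2 lower (background 4.77% and 4.99%), 0 and 1 at the study's criteria, and medians of 0.0026 for complex II and 0.19 for complex IV. The replicate block alone gave 16 members higher and 2 lower (background 5.69% and 5.52%), 1 lower at the study's criteria, and 1 gene at an adjusted p below 0.05, and with GC correction 2 members lower (background 4.63%) and 3 such genes. Between samples that share a replicate number, departures from the mean of the treatment had a correlation of -0.099. With 2 samples a group and LY500307 replicate 2 standing apart, this value cannot decide whether equal numbers mark paired samples. Keeping all genes with at least 1 count gave 1 member lower (background 5.32%), and DESeq2 gave 20 genes at an adjusted p below 0.05.

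Among the 18 members described in full, the direction turned for ATP5L with library totals alone (0.0027), GC correction (0.0403) and the replicate block with GC correction (0.04). It turned for SDHC with length correction (-0.0701), also with the block (-0.0703), and for SDHA with GC correction (-0.031), also with the block (-0.0367). Leaving out a sample turned SDHA (-0.0767 to 0.13), SDHC (-0.0413 to 0.23), UQCRB (-1.28 to 0.0293), COX6C (-0.25 to 0.0185) and ATP5L (-0.10 to 0.0288). Among the other members it turned for UQCR10, COX7A2, ATP5I and ATP5J with length correction, with or without the block, for UQCRC1 with GC correction, with or without the block, for UQCRH, UQCRC1 and ATP5E without LY500307 replicate 2 and for UQCRFS1 without LY500307 replicate 1. The low-count COX6B2 turned under 5 settings, with GC correction, the block with either correction, and without vehicle replicate 1 or LY500307 replicate 1. Why these moved was not tested. With 2 samples a group and 1 standing apart, the size of each difference is loosely known.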
